A study of Oryza sativa with 6 samples.

Results

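Glutelins are the main storage proteins of the rice grain. They are made as precursors on the endoplasmic reticulum of the developing endosperm, carried to the storage vacuole, cleaved there into an acidic and a basic subunit, and packed into protein bodies that feed the germinating seedling. Their genes form A, B, C and D classes and are known for expression in the endosperm, under seed transcription factors that also act on prolamin genes. In a root RNA sample their transcripts are not a usual component.

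The genes asked for were GLUA-1, GLUA-2, GLUA-3 and GLUB-1, matched by symbol or synonym to the array annotation and to the RefSeq gene table. 3 of the 4 genes matched, with 6 probe sets out of 57194 on the array besides controls, and GLUB-1 is named only. GLUA-1 (LOC4327027, also called Gt2, chromosome 1) had 3 probe sets, GLUA-2 (LOC4348563, Gt1, chromosome 10) had 2 and GLUA-3 (LOC4333164, Gt3, chromosome 3) had 1. The genes were picked with the HH1 and MH63 signals of these arrays known, above all those of GLUA-3, so their differences between genotypes are a description, and the counts of calls given for them support nothing.

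HH1 is Huahui 1, a transgenic line in the background of the indica restorer cultivar Minghui 63, known for an insecticidal toxin gene of Bacillus thuringiensis, and MH63 is Minghui 63 itself. Roots of both were taken at 30 days from seedlings germinated in water and grown in nutrient solution at 16 h light and 8 h dark. Each genotype had 3 biological replicates with 1 Affymetrix rice array each. A signal here is a probe set's brightness as deposited, not log-transformed, and the level that 95% of the 64 reporter probe sets for foreign genes stayed under, 37.1 to 42.3 on the 6 arrays, served as the background level (the reporter level).

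The arrays were alike in scale, with median signals from 33.1 to 33.8 over the probe sets that are not controls. Of the root genes, 22 of 26 probe sets lay above the reporter level on all 6 arrays, beside 23680 of all 57194. Among the lists described below it was 12 of 18 for embryo and aleurone genes and 8 of 11 for folding and sorting genes. It was 8 of 22 for starch genes and 8 of 34 for green tissue genes. The count thus does not single out root genes and is no test of the tissue label. The silicon transporter Lsi1 had a mean of 7682 ± 802 in the HH1 roots and 6662 ± 1892 in the MH63 roots (both SD, n = 3). The aquaporins OsPIP1;3, OsPIP2;4 and OsPIP2;5, the last from a probe set of several genes, had HH1 means of 6189, 3758 and 5223. One library stood apart in seed storage transcripts: HH1 replicate 1 exceeded every other array at least 4-fold for most of them, so log2 differences below are given with and without it. The number of arrays limits the precision throughout.

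Values for 3 arrays follow the order of replicates 1, 2 and 3, and the probe sets of a gene are lettered. GLUA-1 was read clearly on 1 array only. Its brightest probe set, GLUA-1 a, gave 541, 16.7 and 15.4 on the HH1 arrays and 31.4, 31.0 and 54.6 on the MH63 arrays. HH1 replicate 1 was far above all others, MH63 replicate 3 was the only other array above the reporter level, and the remaining HH1 arrays were the lowest of the 6. GLUA-1 b read 238, 22.9 and 26.5 in HH1 and 16.9, 16.6 and 29.7 in MH63. GLUA-1 c, the probe set annotated to GLUA-1 alone, read 182, 13.1 and 15.1 in HH1 and 13.1, 9.86 and 27.3 in MH63. All 3 probe sets thus had the same highest array and the same second array, the second below the reporter level for b and c. They are of the shared kind (_s_at or _x_at) that can bind related transcripts.

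GLUA-1 a and b are also annotated to LOC4352868. The brightest probe set of that locus alone was level over the 6 arrays, with means of 19864 ± 173 for the HH1 arrays and 19941 ± 633 for the MH63 arrays (both SD, n = 3). How much of that transcript the shared probe sets bind was not tested.

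GLUA-2 had one probe set with this profile and one without it. GLUA-2 a, an _x_at probe set, read 697, 31.8 and 31.7 in HH1 and 36.8, 30.3 and 42.8 in MH63, again with HH1 replicate 1 highest and MH63 replicate 3 second, the latter at 42.8 against a reporter level of 42.3 on that array. GLUA-2 b, a plain _at probe set assigned to the same gene, read 240, 327 and 264 in HH1 and 324, 257 and 295 in MH63. The genotypes overlapped fully there, HH1 replicate 1 was the lowest array, and all 6 signals lay well above the reporter level. The probe sets thus disagree on GLUA-2, and the gene's level on the other 5 arrays is uncertain.

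GLUA-3 behaved differently. Its only probe set, also of the plain _at kind, read 110, 157 and 51.6 on the HH1 arrays and 11.1, 9.59 and 6.86 on the MH63 arrays. All 3 HH1 arrays lay above the reporter level and all 3 MH63 arrays below it, with no overlap. HH1 replicate 2, below the reporter level in all GLUA-1 probe sets, was the highest array for GLUA-3, and MH63 replicate 3, second for GLUA-1, was the lowest. The MH63 signals are only bounds, and against the reporter level the HH1 signal was at least 2.41-fold higher. The measured means were 106 ± 52.8 (SD, n = 3) and 9.19 ± 2.15 (SD, n = 3).

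**Figure D1:**
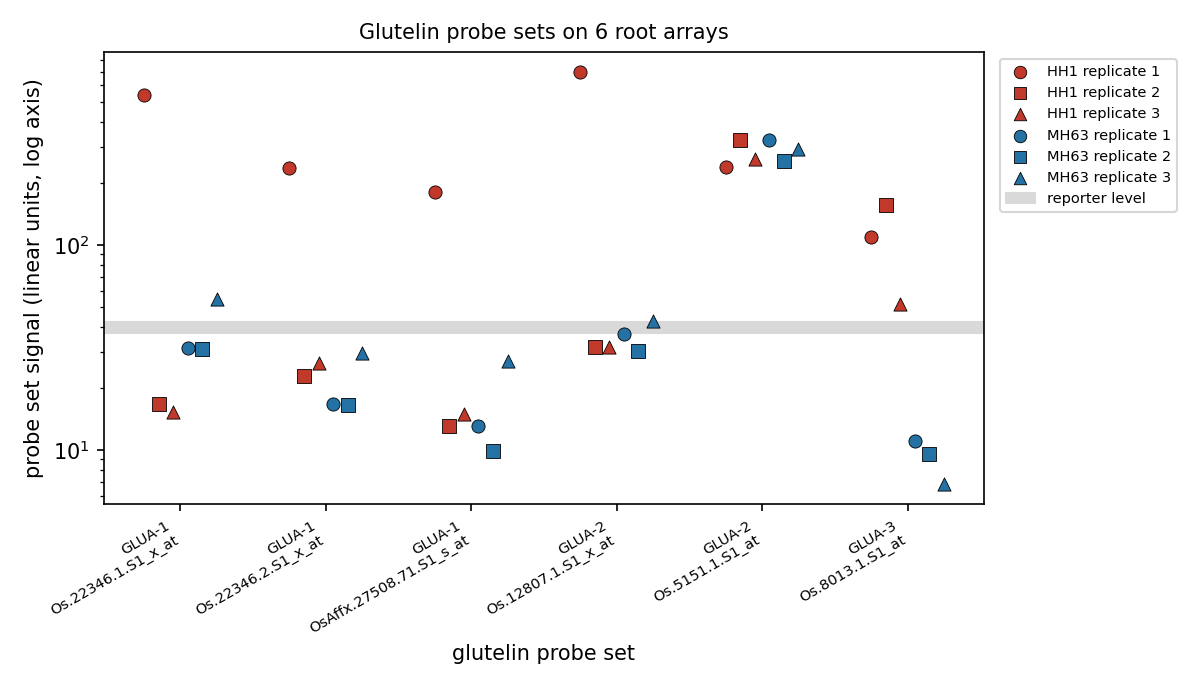
Signal of the 6 glutelin probe sets (x axis) on each array (y axis, linear signal units on a log axis), with the GLUA-1 probe sets in the order a, b and c and those of GLUA-2 in the order a and b, HH1 arrays in red, MH63 arrays in blue, and the range of the reporter level over arrays as a grey band. For 4 probe sets of GLUA-1 and GLUA-2 only HH1 replicate 1 lies far above the band, at 182 to 697, whereas for GLUA-3 the 3 HH1 arrays lie above it and the 3 MH63 arrays below.

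With all arrays, the log2 difference, HH1 minus MH63, was 0.46, 1.37 and 1.12 for the 3 GLUA-1 probe sets in the order above, 1.29 for GLUA-2 a, -0.08 for GLUA-2 b and 3.42 for GLUA-3. Without HH1 replicate 1 the first 4 became -1.23, 0.28, -0.11 and -0.19, and GLUA-3 became 3.32. Apart from GLUA-3, the sign of 4 of the 5 differences turned when that array was left out. For GLUA-1 and GLUA-2 a the remaining HH1 signals lay below the reporter level, so those signs compare mostly background signals. Groups did not overlap for 1 of the 6 probe sets, GLUA-3, higher in HH1, beside 4.51% of all 57194 probe sets in that direction, and 0 were lower in HH1 without overlap, beside 4.98%. Of the 6 probe sets, 3 passed the brightness filter of the limma fit (GLUA-1 a and both of GLUA-2) and 0 of these 3 were called at an adjusted p under 0.05, beside 0.112% of the 28597 probe sets tested (0.0839% called higher in HH1). At an unadjusted p under 0.05 there were also 0 of these 3, beside 4.01% of those tested. With no filter, 1 of 6 was called, GLUA-3, beside 0.0944%. Because the genes were picked on this contrast, nothing is read from these counts.

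The size of the excess in HH1 replicate 1 can be set against the whole array. Over all probe sets, the ratio of HH1 replicate 1 to the highest other array had a median of 0.86 and a 99th percentile of 1.30. GLUA-2 a had a ratio of 16.3 and was 16th among the 26711 probe sets above the reporter level in HH1 replicate 1. The 3 GLUA-1 probe sets had ratios of 9.90, 8.01 and 6.67 and were 24th, 30th and 35th. For the last 2 the other arrays were below the reporter level, so the excess is at least 5.63-fold and at least 4.31-fold. HH1 replicate 1 was at least 4-fold above every other array for 4 of the 6 glutelin probe sets, beside 0.0787% of all probe sets (45 of 57194). This limit was set after the data were seen and applies to the measured signals, so a bound against the reporter level can be lower.

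Other grain storage genes had the same array profile. Of the other named glutelins, 3 of 4 probe sets met the 4-fold limit. GLUB-5, a class B glutelin, read 1274 in HH1 replicate 1 and 12.6 to 27.3 elsewhere in its own probe set, at least 30.1-fold above every other array in HH1 replicate 1. GLUD-1, the class D glutelin, read 179, 7.38 and 6.30 in HH1 and 7.59, 11.0 and 14.5 in MH63. A probe set shared by GLUB-4, GLUB-5 and LOC4326442 (LIR1) read 1347 in HH1 replicate 1 and 30.3 to 53.6 elsewhere. A plain probe set of GLUB-4 was below the reporter level on all 6 arrays, at 6.78 to 9.63.

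Prolamins, the alcohol-soluble grain storage proteins, and the seed allergenic proteins of the alpha-amylase and trypsin inhibitor family met the limit for 7 of 9 probe sets. The prolamin PROLM25 read, in its brightest probe set, 4386, 73.7 and 27.0 in HH1 and 133, 108 and 200 in MH63. RAG2, a seed allergenic protein, read 3889, 68.1 and 17.1 in HH1 and 82.6, 33.7 and 356 in MH63. RA5 and RAG1, of the same allergen family, read 365 and 167 in HH1 replicate 1 and at most 47.3 and 15.1 on any other array. In both of the brightest probe sets, of PROLM25 and RAG2, HH1 replicate 3 was the lowest array and MH63 replicate 3 the second highest.

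Together with the glutelin genes above, 14 of 19 storage probe sets, of 8 genes, met the limit, with ratios of the measured signals from 6.67 to 46.7. MH63 replicate 3 was the second highest array for 13 of the 14. In some, such as GLUD-1 at 14.5 and GLUA-1 b at 29.7, that second signal lay below the array's reporter level of 42.3. The log2 differences of the 14, HH1 minus MH63, ran from 0.46 to 1.69 with all arrays. Without HH1 replicate 1 they ran from -1.67 to 0.28, and 12 of the 14 were below 0. For 11 of the 14, HH1 replicates 2 and 3 were both at or below the reporter level, so these signs partly compare background signals. In the limma fit 0 of the 2 other glutelin and 0 of the 5 prolamin and allergen probe sets tested were called in either direction. This stands beside 0.112% of all tested, and 0 had an unadjusted p under 0.05, beside 4.01%. For most of these probe sets HH1 replicate 1 raised both the mean signal used by the filter and the spread within HH1. Nothing is therefore read from these counts. In these bulk root samples, more cells with a transcript and more transcript per cell cannot be told apart.

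**Figure D2:**
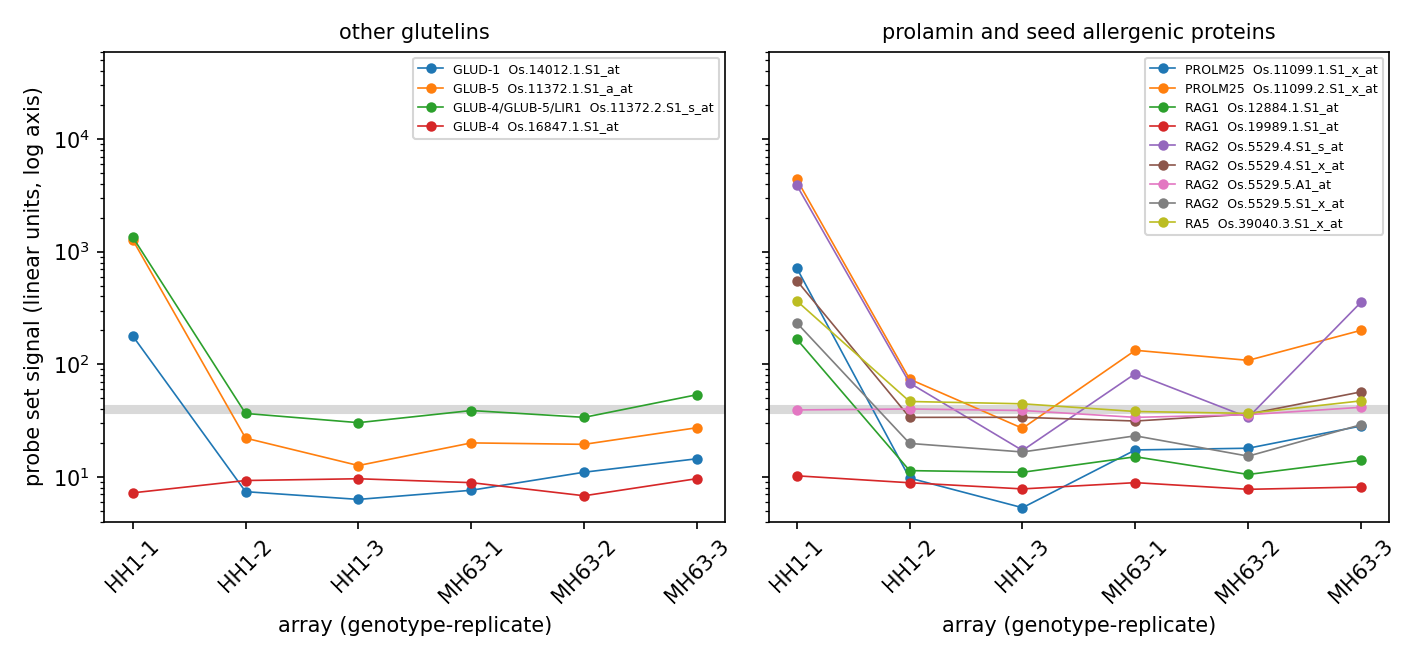
Signal of the other glutelin probe sets (left) and of the prolamin and seed allergenic protein probe sets (right) on each array (x axis, genotype and replicate), in linear units on a log axis, with the reporter level as a grey band. Lines only join the points of a probe set, and in 10 of the 13 probe sets HH1 replicate 1 stands far above the other arrays.

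Other seed genes rarely met the 4-fold limit, which few probe sets of any kind met. Smaller excesses were seen among starch genes: HH1 replicate 1 was the highest array for 11 of 22 starch gene probe sets, beside 16.8% of all probe sets. Most of the 11 were of GBSS1 and Sbe1, and some lay below the reporter level. The same count was 1 of 18 (5.56%) for the embryo and aleurone genes. It was 4 of 11 for the folding and sorting genes and 2 of 4 for the seed transcription factors. Those 2, VP1 and LFL1, were below the reporter level on all arrays, so their order compares background signals. Among endosperm starch genes 1 of 22 probe sets met the 4-fold limit, one of GBSS1, the granule-bound starch synthase of the Waxy locus, named after its values were seen, which read 524, 24.4 and 19.2 in HH1 and 22.2, 20.9 and 97.1 in MH63. The 5 other GBSS1 probe sets did not, and the next highest of them read 247 in HH1 replicate 1 and at most 78.2 elsewhere, a ratio of 3.16. The starch branching enzyme Sbe1 read 1340 in HH1 replicate 1 and 675 to 832 elsewhere in its brightest probe set, a ratio of 1.61, and both ratios lie above the 99th percentile of all probe sets. PPDKB, CIN2 and AGPS2, the other starch and sugar genes with the brightest signals, had their highest array in HH1 replicate 2, HH1 replicate 1 and MH63 replicate 1, at 5465, 258 and 246. Over the starch list the median log2 difference was -0.02, beside -0.0046 over all probe sets.

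Of the embryo and aleurone genes 0 of 18 probe sets met the limit. The oleosin OLE18, from a probe set of several genes, read 4101 in HH1 replicate 1 and 3220 to 5001 elsewhere. Another OLE18 probe set, also of several genes, read 59.4 in HH1 replicate 1 and 52.5 to 69.1 elsewhere, so the level of OLE18 is uncertain. LOX3, a lipoxygenase, and LEA3, a late embryogenesis protein, read 666 and 312 in HH1 replicate 1, within the range of the other arrays. AMY1A, an alpha-amylase of germination, had its highest signal in HH1 replicate 1, at 4414, and its lowest in HH1 replicate 3, at 120, beside 1266 to 2397 in MH63, and its ratio of HH1 replicate 1 to the next array, 1.84, was also above that percentile. Genes that fold, sort and cut glutelin precursors were near level on all arrays, with 0 of 11 probe sets past the limit. The chaperones BIP1 and CRT1, the disulfide isomerase PDIL1-1 and VPE1, the vacuolar enzyme that cleaves proglutelin, had HH1 means of 5002, 7339, 4140 and 891 and MH63 means of 5076, 6950, 3917 and 931. Of the transcription factors with a seed role, 0 of 4 probe sets met the limit, and VP1, NFYB1 and LFL1 were at or below the reporter level on all arrays, with highest signals of 36.9, 22.5 and 5.29. RISBZ5, a bZIP factor named after a family of seed bZIPs, read 788 in HH1 replicate 1 and 672 to 1606 elsewhere.

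**Figure D3:**
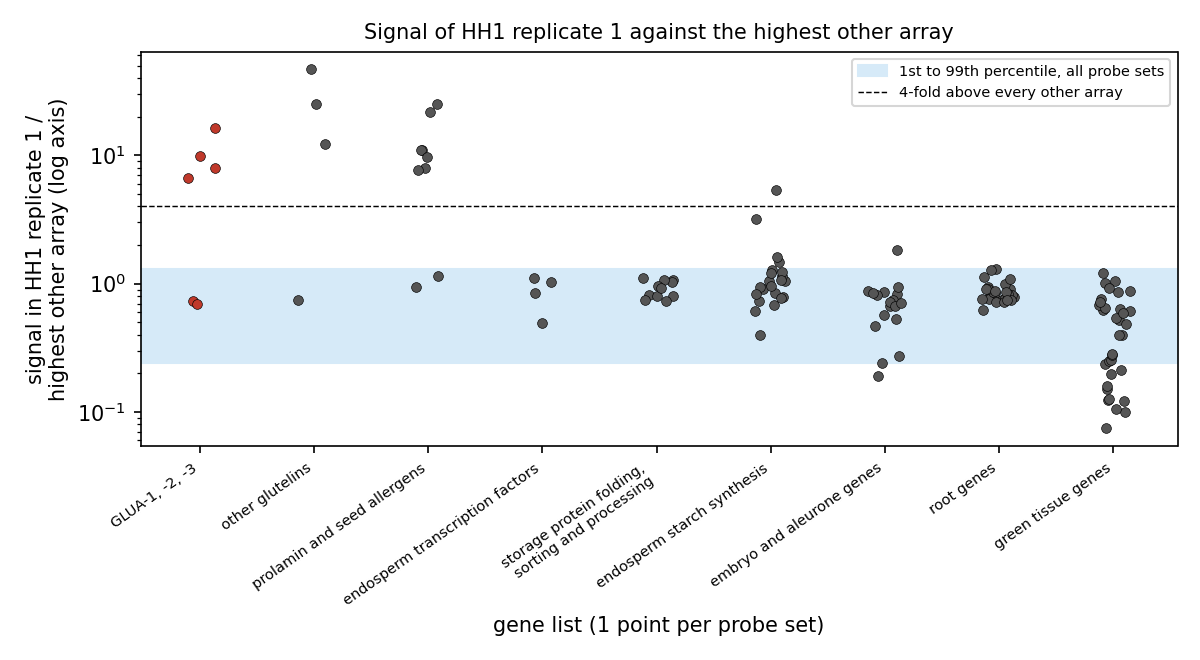
Ratio of the signal in HH1 replicate 1 to the highest of the other 5 arrays (y axis, log axis), 1 point per probe set, by gene list (x axis), with the 1st to 99th percentile of all probe sets shaded and the 4-fold limit dashed. 4 probe sets of GLUA-1 and GLUA-2 and 10 of the other storage genes lie above the limit, and 1 starch gene probe set does, whereas GLUA-3 and the other lists lie below it.

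None of the lists held a call in the limma fit. Of the 44 tested probe sets of the 6 seed lists, 0 passed, beside 0.112% of all tested, and 1 had an unadjusted p under 0.05, beside 4.01%. For the storage genes among the 44 the limit given above holds. Summed over the brightest probe set of each gene, the prolamin and allergen list was 8808, 200 and 99.6 in HH1 replicates 1, 2 and 3 and 269, 189 and 618 in MH63 replicates 1, 2 and 3. The green tissue list, markers of shoot material, was ordered otherwise, at 968, 2362 and 868 in HH1 and 2838, 3031 and 853 in MH63. HH1 replicate 1 and MH63 replicate 3, the 2 arrays highest in storage transcripts, were thus not high in green tissue transcripts. CAB2R, a light-harvesting protein, read 166 and 30.2 on these arrays. The chlorophyll synthesis gene PORB, the photosynthesis gene petC and OsrbcS, of the Rubisco small subunit, had HH1 means of 100.3, 81.1 and 198 and MH63 means of 163, 144 and 174. The OsrbcS values are from its brightest probe set, and another above the reporter level on all arrays had means of 58.1 in HH1 and 108 in MH63. The median log2 difference of the green tissue list was -0.50, and -0.46 without HH1 replicate 1. The part of seed or shoot material in these differences was not tested.

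Genes with the most similar profile were ranked by Pearson r of log2 signals over the 6 arrays, as a description, among 17078 to 17080 probe sets of 1 gene. For GLUA-1 a the first was PROLM25 (r = 0.98), followed by LOC4335834, LOC4341135, LOC4329275 and LOC4349773. LOC4341135 read 2322 in HH1 replicate 1 and 17.8 to 50.1 elsewhere, and LOC4335834, despite its r, read 625 against 486 to 528. Without HH1 replicate 1 the r of these 5 was 0.82 to 0.95. On the arrays then left, GLUA-1 a lay above the reporter level in MH63 replicate 3 only, so these r rest mostly on background signals. Without HH1 replicate 1, GLUA-1 a had an r of 0.01 with GLUA-1 b and 0.51 with GLUA-1 c. GLUA-2 b, whose signals varied little, had 50 probe sets with r over 0.95, more than the 35 of GLUA-1 a. Its first were LOC4326325, LOC9268524, LOC4341891, LOC4333575 and the metal-chelate transporter family member YSL5. For GLUA-2 a, ranked after the values were seen, the first 5 were LOC4343688, LOC9270227, LOC4341135, RA5 and RAG2. Without HH1 replicate 1 their r was 0.62, 0.85, 0.79, 0.34 and 0.73 in that order. LOC9270227 read 2055 in HH1 replicate 1 and 31.3 to 57.1 elsewhere.

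For GLUA-3 the 5 most similar genes were all higher in each HH1 array than in each MH63 array. LOC4350749 (r = 0.99) read 56.7 and 78.8 in HH1 replicates 1 and 2, less in HH1 replicate 3, and 13.3, 11.5 and 10.1 in MH63, with the 6 arrays in the same order as for GLUA-3. LOC4344184 read 128, 150 and 129 in HH1 and 65.5, 69.3 and 62.5 in MH63. LOC4350766 had means of 45.3 against 21.8, whereas LOC4332622 and LOC4330565 differed little in size, with means of 1506 against 1319 and 586 against 492. The points form 2 clusters, the genotypes, and GLUA-3 was picked for that gap.

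The genes next to GLUA-3 did not share its profile. Of the 10 nearest annotated genes with a probe set of their own, 5 on each side within 7 genes, 0 had groups that did not overlap, beside 9.49% of all probe sets in either direction. Their log2 differences ran from -0.24 to 0.14 with a median of 0.01. The direct neighbours LOC4333163 and LOC4333165 had differences of -0.17 and 0.04. Around GLUA-1 0 of 10 flanking genes had groups without overlap and 0 met the 4-fold limit in HH1 replicate 1. LOC4327022, 1 of these 10, lay below the reporter level on all 6 arrays. Around GLUA-2 the same counts were 1 of 10, LOC4348553, lower in HH1, and 0 of 10.

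**Figure D4:**
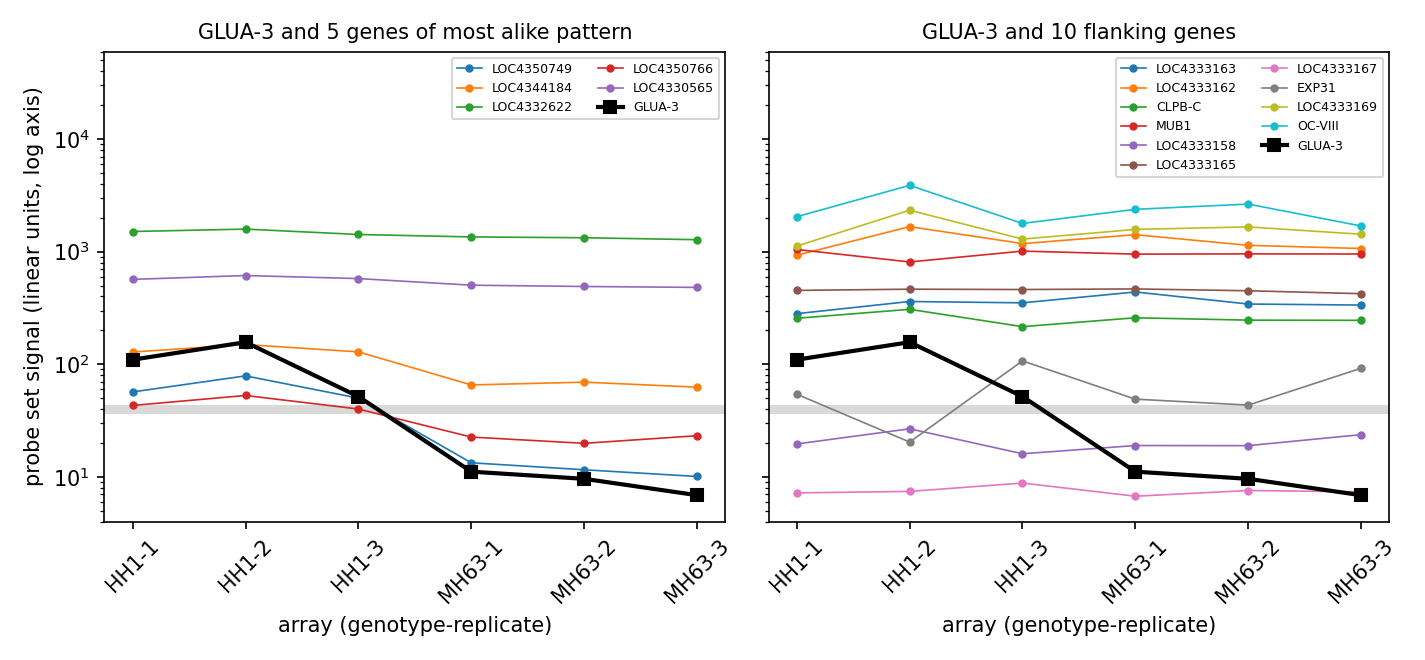
Signal of GLUA-3 (black squares) on each array (x axis, genotype and replicate), in linear units on a log axis, beside the 5 genes of most similar profile (left) and the 10 nearest annotated genes with a probe set of their own (right), with the reporter level as a grey band. GLUA-3 falls from 51.6 or more on HH1 arrays to 11.1 or less on MH63 arrays, and the groups overlap for all 10 flanking genes.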

How the data were processed

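The authors deposited 1 intensity per probe set and array on a linear scale, and the submitters' processing notes name MAS5 without a version; how arrays were scaled and which genome build lies behind the probe sets are not given in the sources used here. RNA was labelled from 6 ug by the array maker's protocol, per the labels. Signals were used as log2 without an offset. The 187 control probe sets were set aside. Genes were named through the platform annotation and the RefSeq table of assembly ASM3414082v1, used for names, chromosomes and gene order only.

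HH1 was set against MH63 with limma 3.58.1 under R 4.3.3 (lmFit, eBayes with a trend, two-sided, Benjamini-Hochberg, threshold 0.05) over the 28597 probe sets with the highest mean log2 signal, and the fit was tested on simulated data. The glutelin genes, the gene lists and the tests were chosen with earlier results of these data known. 12 genes matched to a list by a name that belongs to another gene were removed after values had been seen. The reporter level was also chosen after the data were seen. The text names all glutelin probe sets, up to 4 genes per list with the highest mean signal, and the 5 most similar genes per glutelin gene, among probe sets above the reporter level on at least 2 arrays. GBSS1, LOC9270227, LOC4342721, the partner and flanking genes and single probe sets beside these were named after their values were seen. Nothing says that the biological replicates were grown apart, so p-values measure the spread between these samples. Alternatives covered scaling, offset, filter, trend, array weights, a replicate block and leaving out each array. Figures were drawn with matplotlib 3.10.9.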

Additional observations from a re-analysis of the deposited data

How the results depend on the processing

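The 32 probe sets called between genotypes became 54 with no filter on low signals (more tested), 8 under a stricter brightness filter (fewer tested), 50 with array weights, an alternative chosen after seeing the data, and 17 with a replicate block, and 32 to 37 under the other settings. With single arrays omitted, limma called from 0, for HH1 replicate 1 (843 had an unadjusted p under 0.05), to 306, for HH1 replicate 3, and 26, 1, 20 and 13 for HH1 replicate 2 and MH63 replicates 1, 2 and 3; the cause was not tested. Calls among the seed lists were 0 in each of these settings. Deviations of same-numbered arrays correlated at -0.12, 0.45 and 0.31, and those of differently numbered arrays at -0.45 to 0.25. Whether the numbers pair the samples was not settled by this, and the sample titles state no pairing, so the main fit had no block. In this balanced design a block cannot change a mean difference, so the unchanged glutelin differences under it show nothing.

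The log2 difference of GLUA-3 was 2.31 with an offset, and 1.27 with signals below the reporter level raised to it, an alternative chosen after seeing the data; both raise the dim MH63 signals by construction. With 1 array left out it ran from 3.06 to 3.86. For GLUA-1 the ranges were -1.23 to 1.34 (a), 0.28 to 1.97 (b) and -0.11 to 1.78 (c), and for GLUA-2 -0.19 to 2.04 (a) and -0.21 to 0.01 (b). In each of the 4 probe sets high in HH1 replicate 1 the lowest value came without that array, which largely follows from its being their highest array. The deposited data give no detection calls. Presence in MH63 roots could therefore not be told for glutelin probe sets below the reporter level there, such as that of GLUA-3.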

Other observations

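Of the 45 probe sets at least 4-fold above every other array in HH1 replicate 1, 27 had 1 gene, 5 had several and 13 had none. The 27 stood for 19 genes, of which 9 had a name beyond a locus number, and all 9 were among the glutelin genes or the seed lists (GLUA-1, GLUA-2, GLUB-5, GLUD-1, PROLM25, RAG1, RAG2, RA5 and GBSS1). The lists were written with earlier results of these data known, so this overlap supports nothing. Genes without a name and probe sets with several genes or none were not classed. The same limit was met by 28 probe sets in HH1 replicate 2, 0 in HH1 replicate 3, and 2, 140 and 3 in MH63 replicates 1, 2 and 3. MH63 replicate 3 was the second highest array for 34 of the 45, in part with signals below its reporter level.

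LOC9270227 had 5 probe sets past the limit. One of them had the highest ratio of all probe sets, 53.9, at 1602 in HH1 replicate 1 and 15.2 to 29.7 elsewhere. LOC4342721 read 1545 in HH1 replicate 1, 82.6 in MH63 replicate 3 and 26.6 to 40.8 on the other arrays.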
